A study of Mus musculus with 6 samples.

Results

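Cthrc1, Grem1, Lrrc15, Scx, Ncam1, Adam12, Fst, Sfrp1, Ddah1 and Aspn, 10 genes used as markers of the fibroblasts that appear in fibrotic lung, were examined for peaks of the transcription factor Runx1. They were taken by name from the 21887 protein-coding genes of the RefSeq gene table (build GRCm38.p6, the release of mm10 used here), and all 10 were found in it. Each gene was given a window made of its body with 10 kb added at both ends, and every peak touching that window was assigned to it. Sites of Runx1 were mapped with ChIP-seq (sequencing of DNA recovered with an antibody against the protein) in green (GFP+) lung fibroblasts of Col1a2-CreERT2;mTmG mice. In this genotype an inducible Cre driven by the collagen gene Col1a2 switches a membrane reporter from red to green, and the switch is inherited. The cells are thus those in which that promoter was active when Cre was induced, or descend from such cells. The 3 ChIP libraries came from sham-injured lungs (sham), from lungs on day 14 after intratracheal bleomycin (D14) and from lungs on day 56 after it (D56), each with an input library. Bleomycin is a drug that injures the lung and leads to fibrosis. All groups share the genotype, the sort and the antibody. How many mice went into a library, their age and sex and the time of Cre induction are not stated here.

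There was 1 ChIP library per condition, so no difference between conditions could be tested and no p-value is given for one. Ranges after a share are its 95% Wilson interval, which reflects counting error alone. The libraries were unequal in depth, with 48816721 (sham), 78744701 (D14) and 49669125 (D56) ChIP tags and 39609538, 49312043 and 19949187 input tags, and the lists held 25052, 56316 and 15009 peaks on the main chromosomes. The caller scaled the larger of ChIP and input down to the other, so each list was called at its input depth. List length followed the order of input depth. Sham and D56 had nearly equal ChIP depth but unequal input depth, and lists of unequal length. The part of depth in the results below was not tested. ChIP signal from sorted cells does not tell a site bound in few cells from a site bound weakly in many. A gene without a called peak is not shown to lack Runx1. Peaks are no measure of expression, so the labelled cell type could not be checked by it. Beside the 60.3% (sham), 73.3% (D14) and 53.7% (D56) of all protein-coding genes with a peak, 6 of 7 fibroblast markers had a peak in sham, 7 at D14 and 6 at D56, of 6 endothelial markers 4, 6 and 4, and of 5 pericyte and smooth muscle markers 3, 5 and 1. Myeloid markers had a peak at 1, 4 and 1 of 6 genes, epithelial markers at 1, 4 and 0 of 5 and mesothelial markers at 0, 2 and 0 of 4. Adgre1, Lyz2, Cdh1, Msln and Lrrn4 had none in any library. The part of other cells in the results was not tested.

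RUNX proteins bind DNA through their Runt domain, as partners of Cbfb, at a short core that reads TGTGGT or TGCGGT. They can activate or repress the genes nearby and often share regulatory regions with AP-1 factors. In injured lung, a subset of fibroblasts takes on a matrix-producing state that is recognised by Cthrc1 and several of the other genes studied here, and this state wanes as experimental fibrosis resolves. The genes encode secreted modulators of BMP, activin and Wnt signals (Grem1, Fst, Sfrp1, Cthrc1), cell-surface proteins (Lrrc15, Ncam1, Adam12), a transcription factor (Scx), a matrix proteoglycan (Aspn) and a metabolic enzyme (Ddah1).

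The RefSeq promoter table, which gives strand and start site, held 4 of the 10 genes (Grem1, Lrrc15, Ddah1 and Aspn). A D14 peak met the promoter window, from 250 bases before to 50 bases after the start, at 3 of these 4, while no peak of the other lists met any. Over all 32851 promoter windows listed, 40.2% met a D14 peak, 31.7% a sham peak and 27% a D56 peak. The 250 bases before the start are shown because they are the places where D14 peaks met a known start site, beside Aspn, where none did. They are written 5′ to 3′ on the strand of the gene, from RefSeq (GRCm38.p6), and capitals mark the bases that lie under a D14 peak. The Grem1 stretch is chr2:113758649-113758898 (minus strand), that of Lrrc15 is chr16:30283255-30283504 (minus strand), that of Ddah1 is chr3:145758442-145758691 (plus strand) and that of Aspn is chr13:49544193-49544442 (plus strand).
Grem1: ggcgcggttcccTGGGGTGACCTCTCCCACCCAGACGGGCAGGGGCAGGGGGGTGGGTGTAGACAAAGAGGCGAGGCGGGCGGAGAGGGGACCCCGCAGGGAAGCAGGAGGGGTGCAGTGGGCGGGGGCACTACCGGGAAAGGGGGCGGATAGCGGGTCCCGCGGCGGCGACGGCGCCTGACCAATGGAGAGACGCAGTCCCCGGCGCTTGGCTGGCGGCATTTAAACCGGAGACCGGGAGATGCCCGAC
Lrrc15: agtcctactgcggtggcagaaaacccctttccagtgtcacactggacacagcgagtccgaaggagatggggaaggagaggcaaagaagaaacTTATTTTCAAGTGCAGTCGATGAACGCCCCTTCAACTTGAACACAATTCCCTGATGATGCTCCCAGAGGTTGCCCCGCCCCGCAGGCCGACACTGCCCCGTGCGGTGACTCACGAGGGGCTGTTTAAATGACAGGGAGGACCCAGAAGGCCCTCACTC
Ddah1: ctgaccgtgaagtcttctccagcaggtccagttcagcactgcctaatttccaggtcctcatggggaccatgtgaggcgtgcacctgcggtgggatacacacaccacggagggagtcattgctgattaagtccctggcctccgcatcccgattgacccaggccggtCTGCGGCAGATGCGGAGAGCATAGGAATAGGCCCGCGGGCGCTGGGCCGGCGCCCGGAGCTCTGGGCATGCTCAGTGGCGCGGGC
Aspn: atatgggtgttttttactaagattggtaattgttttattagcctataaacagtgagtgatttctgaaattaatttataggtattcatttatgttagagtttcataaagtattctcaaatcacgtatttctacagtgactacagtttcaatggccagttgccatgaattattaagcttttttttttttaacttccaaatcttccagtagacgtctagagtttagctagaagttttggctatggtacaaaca

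The D14 peak covered 238 of the 250 printed bases at Grem1, 158 at Lrrc15 and 85 at Ddah1. Its summit lay 76 bp before the start site at Grem1, 9 bp after it at Lrrc15 and 31 bp after it at Ddah1. The stretches differed in base composition, with 72% G or C at Grem1, 64% at Ddah1, 56.4% at Lrrc15 and 30% at Aspn. They were searched on both strands for the 2 forms of the RUNX core given above and for the AP-1 motif, spelled TGANTCA. The first form occurred in none of the 4, and in 14.0% of all promoters of the same length. The second form occurred at Lrrc15, from 242 to 237 and from 58 to 53 bases before the start, and at Ddah1, from 166 to 161 bases before it. It occurred in 5.10% of all promoters. Of these 3 matches only the Lrrc15 match at 58 to 53 lay under the D14 peak. Lrrc15 also held the AP-1 motif, from 53 to 47 bases before the start, sharing a base with that RUNX match. The AP-1 motif occurred in 6.75% of all promoters. Grem1 and Aspn held none of the 3 motifs. A match describes the letters of the window and is not a bound site.

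Runx1 peaks at these genes were most numerous at D14. Of the 10 genes, 9 had a peak at D14, 4 in sham (Adam12, Fst, Sfrp1 and Ddah1) and 2 at D56 (Sfrp1 and Ddah1). Across all protein-coding genes 73.3% had a peak at D14, 60.3% in sham and 53.7% at D56. Their windows held 49 (D14), 6 (sham) and 2 (D56) peaks. D14 was the only library with a peak at Ncam1, Scx, Lrrc15, Grem1 and Cthrc1, a pattern shared by 12.6% of protein-coding genes. Sfrp1 and Ddah1 had a peak in every library, as did 53.3%, and Aspn had none in any, as did 26.6%. The D14 number rests on peaks of low and middle strength. When each list was limited to its 15009 strongest peaks by −log10 p, the length of the D56 list, the D56 peaks could not change. Sfrp1 alone then kept a D14 peak, and both Sfrp1 and Ddah1 kept their sham peaks. In those lists 56.7% of protein-coding genes had a D14 peak, 52.5% a sham peak and 53.7% a D56 peak. With 50 kb on either side in place of 10 kb, the genes with a peak were 10 (D14), 8 (sham) and 6 (D56), beside 82.0%, 73.2% and 68.5% of all protein-coding genes.

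**Figure D1:**
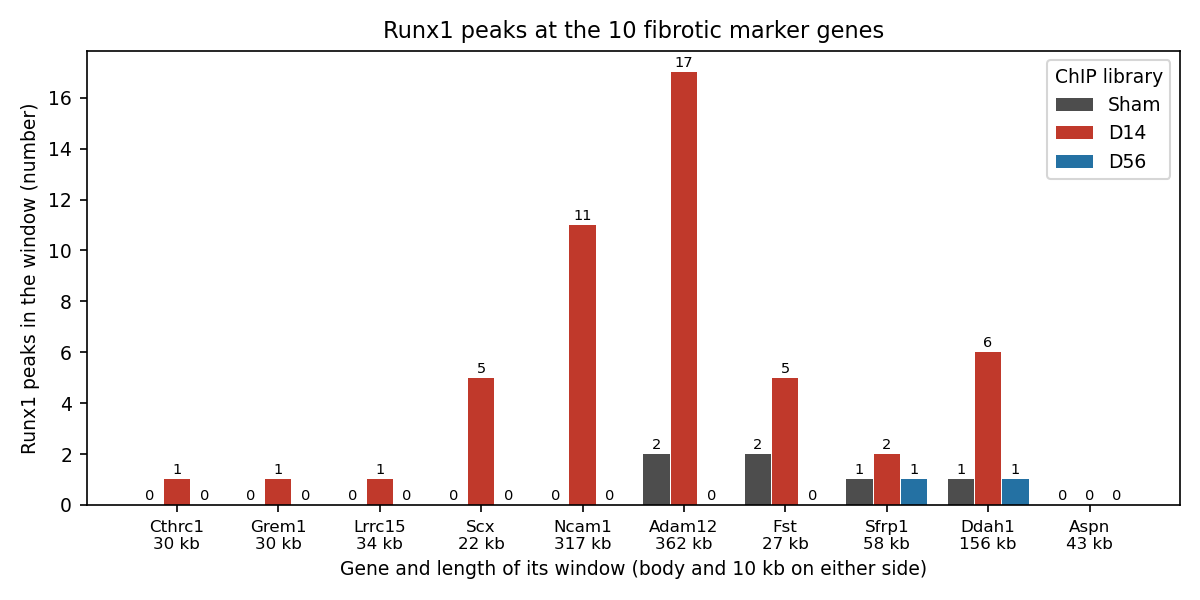
Number of Runx1 peaks in the window of each gene (y axis) in sham, D14 and D56, with the length of the window under each name. D14 bars reach 17 at Adam12 and 11 at Ncam1, the longest windows, and every D56 bar is at 0 or 1.

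Long genes offer more room for peaks, so numbers were also set against the length of the window. At D14 the density was 22.7 peaks per 100 kb at Scx and 18.7 at Fst, the shortest genes of the set. At the other 7 genes with a D14 peak it lay between 2.95 (Lrrc15) and 4.70 (Adam12), near the 3.76 over the windows of all protein-coding genes. In sham the density over all windows was 1.94 and at D56 1.31 peaks per 100 kb. Adam12 had 0.553 in sham and 0 at D56, and Ncam1 had 0 in both. Ddah1 was at 0.643 in both libraries and Sfrp1 at 1.72 in both. Fst stood at 7.48 (sham) and 0 (D56). Of the 15880 protein-coding genes with a body up to 40 kb, 9.75% had at least the 5 D14 peaks of Scx and of Fst. Of the 2429 genes of 100 kb or more, 7.0% had at least the 17 of Adam12, 19.2% the 11 of Ncam1 and 41.1% the 6 of Ddah1. Among the short genes a D14 peak was found at 67.3%, a sham peak at 55.4% and a D56 peak at 49.8%, and among the long ones at 91%, 71.9% and 61.3%.

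Most of these genes had a D14 peak near a gene end, although only 11 of the 49 D14 peaks lay there. At D14, 9 of the 10 genes had a peak within 1 kb of an annotated gene end, against 57% of protein-coding genes. In sham 2 had one (Fst and Sfrp1, 45.7% of all genes), and at D56 only Sfrp1 had (40%). The gene table gives no strand and no exons, so apart from the 4 genes of the promoter table the start was not told from the far end, and exons were not told from introns. Of the 49 D14 summits 38 lay inside the body of the marker gene that the peak was assigned to. Some of the others lay inside another gene, as did all 5 at Scx, which were in Bop1.

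Grem1, the secreted BMP antagonist gremlin, spans 113748675 to 113758648 on chromosome 2. Its single D14 peak, at 113758625 to 113758886, is the promoter peak shown above, with a pileup of 27 fragments at the summit and a fold enrichment of 6.37 over local background. Pileup and fold are the authors' values, made within each library, so a pileup of 1 library cannot be set against that of another. By −log10 p it stood at percentile 47.3 of the D14 list. The nearest sham and D56 peaks lay 89.98 kb beyond the gene at a place called in all 3 libraries (113848626 to 113849156 in sham). Cthrc1, a secreted protein that modifies Wnt signalling and the marker that gives the fibrotic state its usual name, spans 39076932 to 39087121 on chromosome 15. Its only peak, D14 at 39077484 to 39077779, had its summit 742 bp inside the gene, a pileup of 23 and a fold of 4.13 (percentile 20.4). The nearest peak of sham lay 25.3 kb away at 39112430 to 39113206, by the end of higher coordinate of the neighbour Slc25a32. It was called in every library.

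Fst encodes follistatin, which binds and neutralises activins, and spans 114452262 to 114458989 on chromosome 13. It had 5 D14 peaks within 4.41 kb, from 114456432 to 114460836. Their pileups were 21, 28, 28, 15 and 37 in order of position. Sham had 2 peaks there, with pileups of 18 and 20, and D56 had none. Each sham peak overlapped a D14 peak, with summits 239 and 56 bp apart, and the sham peaks were weak in their list (percentiles 10.5 and 5.70). The D14 peaks that they met stood at 38 and 52.3. All 5 D14 summits and both sham summits also lay in Gm41074, a long noncoding RNA gene that overlaps Fst, so the peaks cannot be given to either gene alone.

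Sfrp1, a secreted frizzled-related Wnt antagonist, spans 23411383 to 23449632 on chromosome 8 and had the strongest peaks of the 10 genes. A peak at its end of lower coordinate was called in sham (23411248 to 23411575), at D14 (23411206 to 23411786) and also in D56 (23411266 to 23411541). The pileup was 47 (sham), 134 (D14) and 20 (D56), and the fold was 8.15, 12.3 and 8.11. Its percentile was 75.0 in the sham list, 91.3 in the D14 list and 55.5 in the D56 list. The summits lay 10 to 57 bp apart, so the libraries marked the same place. D14 had a further peak 4.65 kb past the other end of the gene (pileup 28, fold 6.51), which overlapped no peak of sham or D56.

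**Figure D2:**
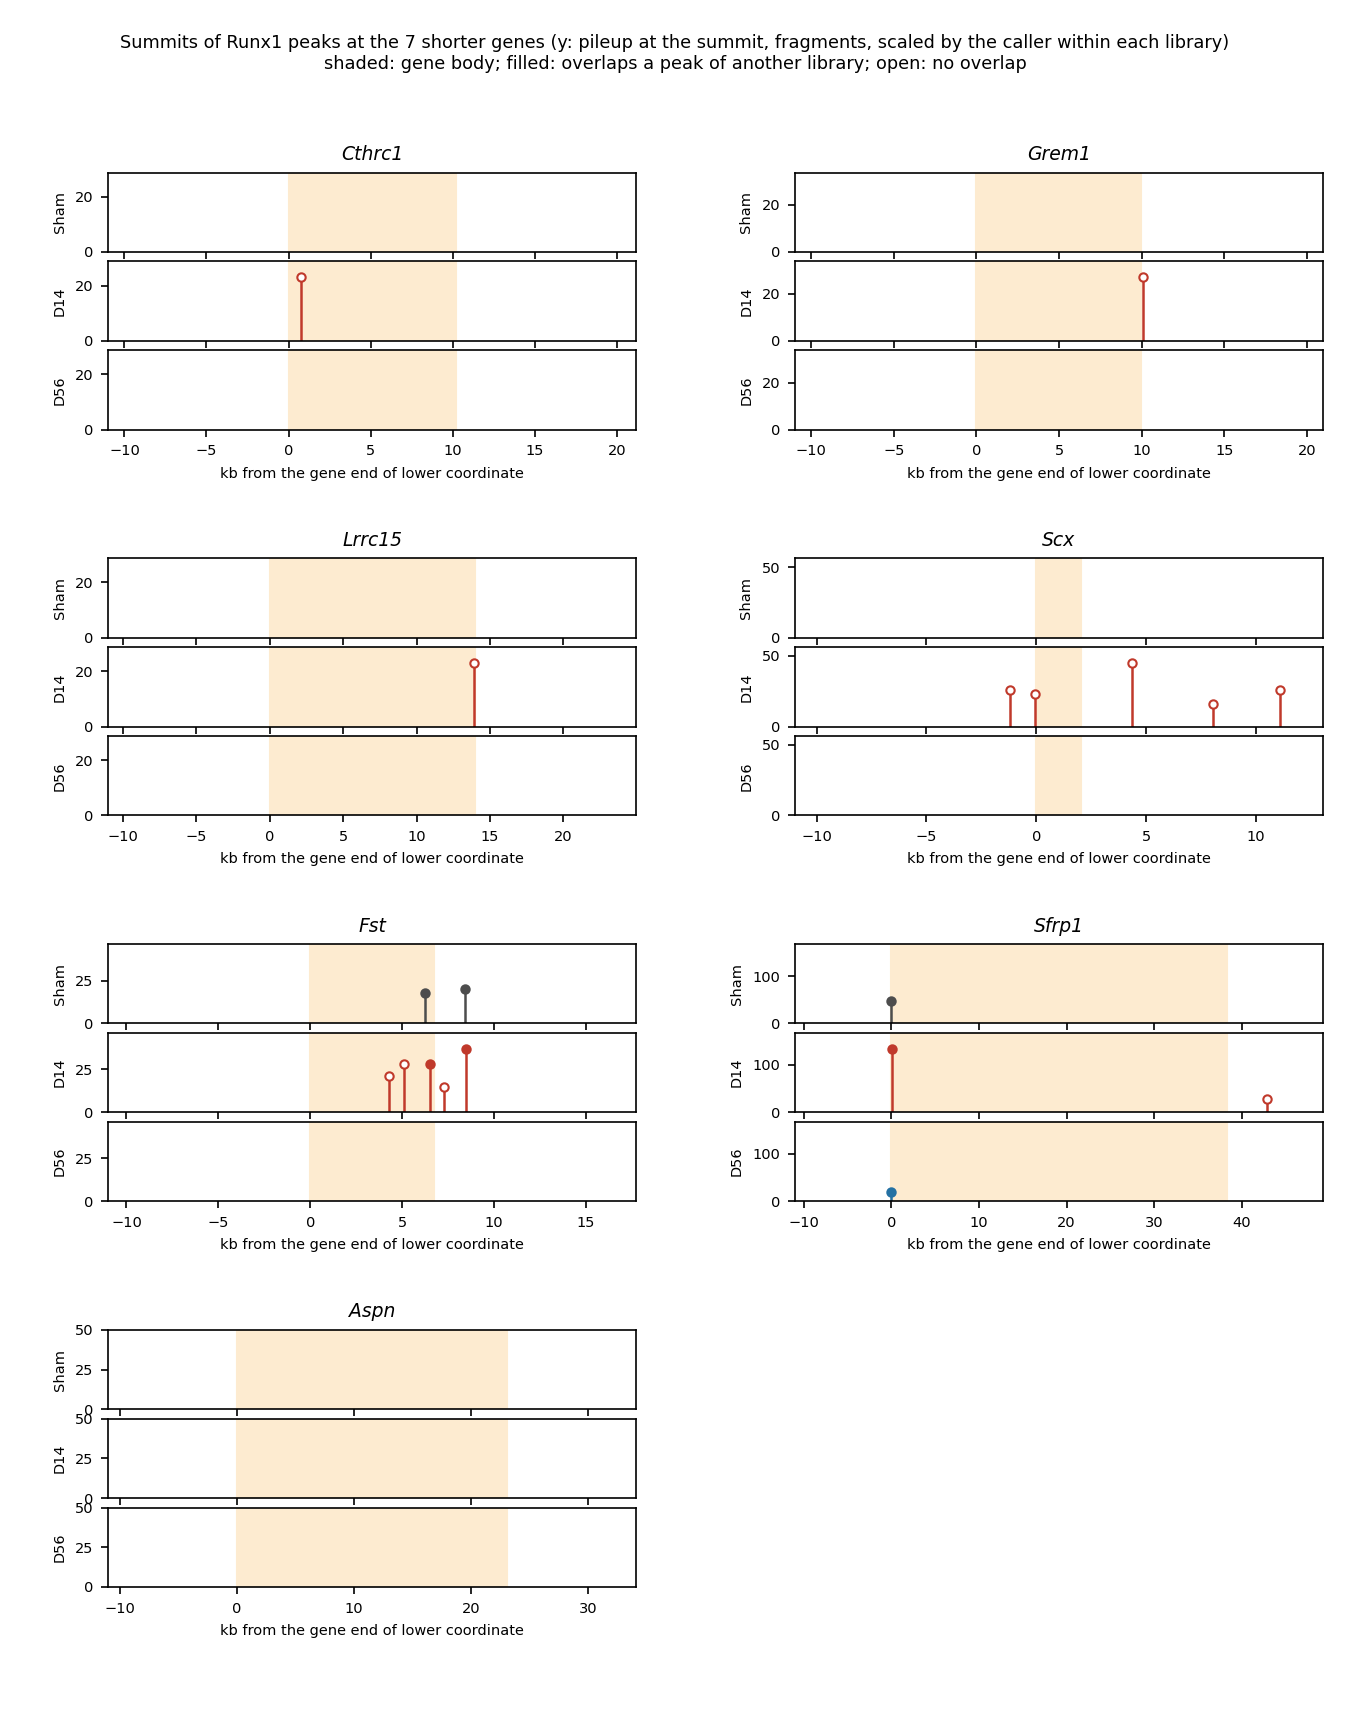
Summits of Runx1 peaks along the 7 shorter genes, with distance from the gene end of lower coordinate (x axis, kb) and pileup at the summit (y axis, fragments, scaled by the caller within each library) in sham, D14 and D56. Filled points overlap a peak of another library and open points do not: Sfrp1 is filled in all 3 libraries at its lower end, and Cthrc1, Grem1, Lrrc15 and Scx have open D14 points alone.

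Lrrc15, a leucine-rich repeat membrane protein of activated fibroblasts, spans 30269302 to 30283254 on chromosome 16. Its only peak, D14 at 30283099 to 30283412, lay on the start site and had a pileup of 23 and a fold of 4.03 (percentile 20.4). A sham peak lay 16.9 kb from the gene, at 30252180 to 30252375, and the nearest D56 peak 80.9 kb from it. No summit fell in the neighbouring gene Cpn2 in any library.

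Ncam1 encodes the neural cell adhesion molecule and spans 49502129 to 49799393 on chromosome 9. The D14 list held 11 peaks there and the sham and D56 lists 0. D14 pileups ran from 23 to 48 with a median of 29, and folds from 4.03 to 9.42. The highest, at 49571775 to 49572029, had a pileup of 48 and stood at percentile 72.1, just below the limit of 73.3 for the 15009 strongest. Within 2.51 kb at the end of higher coordinate, 4 peaks (49796682 to 49799191) stood together with pileups of 35, 30, 24 and 36. The others were scattered, 1 of them 7.98 kb outside the gene, and 2 had summits in the overlapping noncoding gene Gm11149. Sham and D56 were not without peaks nearby: a peak 15.7 kb beyond the lower end, at 49485765 to 49486388 in sham, was called in all 3 libraries.

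Among the 2768 protein-coding genes with peaks at D14 alone, Ncam1 was 1 of 6 with 11 or more. The 5 others were Ptprn2 (13 D14 peaks), Fam169b and Fat3 (12 each), and Rerg and Srgap3 (11 each). Likeness here means only the peak numbers of 3 libraries, with none outside D14. Their bodies span 89.3 (Fam169b) to 792 kb (Ptprn2), against 297 kb for Ncam1.

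Adam12, a membrane metalloprotease of the ADAM family that is found in activated mesenchyme, spans 133883199 to 134225097 on chromosome 7. The numbers were 17 (D14), 2 (sham) and 0 (D56), the nearest D56 peak being 106 kb away. D14 pileups ran from 20 to 43 with a median of 28, and folds from 2.59 to 9.31. The peak with the highest fold, at 134033193 to 134033401, had a pileup of 40 (percentile 68.0), overlapped no sham peak, and had its summit in the noncoding gene Gm39103, which lies inside Adam12. The 2 sham peaks each met a D14 peak with summits 38 and 15 bp apart. At 133971182 to 133971347 the sham peak had a pileup of 30 and a fold of 2.45, among the weakest of its list (percentile 1.5), while the D14 peak there stood at 57.0 with a pileup of 40 and a fold of 5.96. At 134115472 to 134115701 the sham pileup was 21 (percentile 22.7) and the D14 pileup 42 (percentile 63.2). This second place was part of a group of 3 D14 peaks within 1.34 kb, and 3 more stood within 1.74 kb at the end of higher coordinate (134223900 to 134225638), where sham had none.

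**Figure D3:**
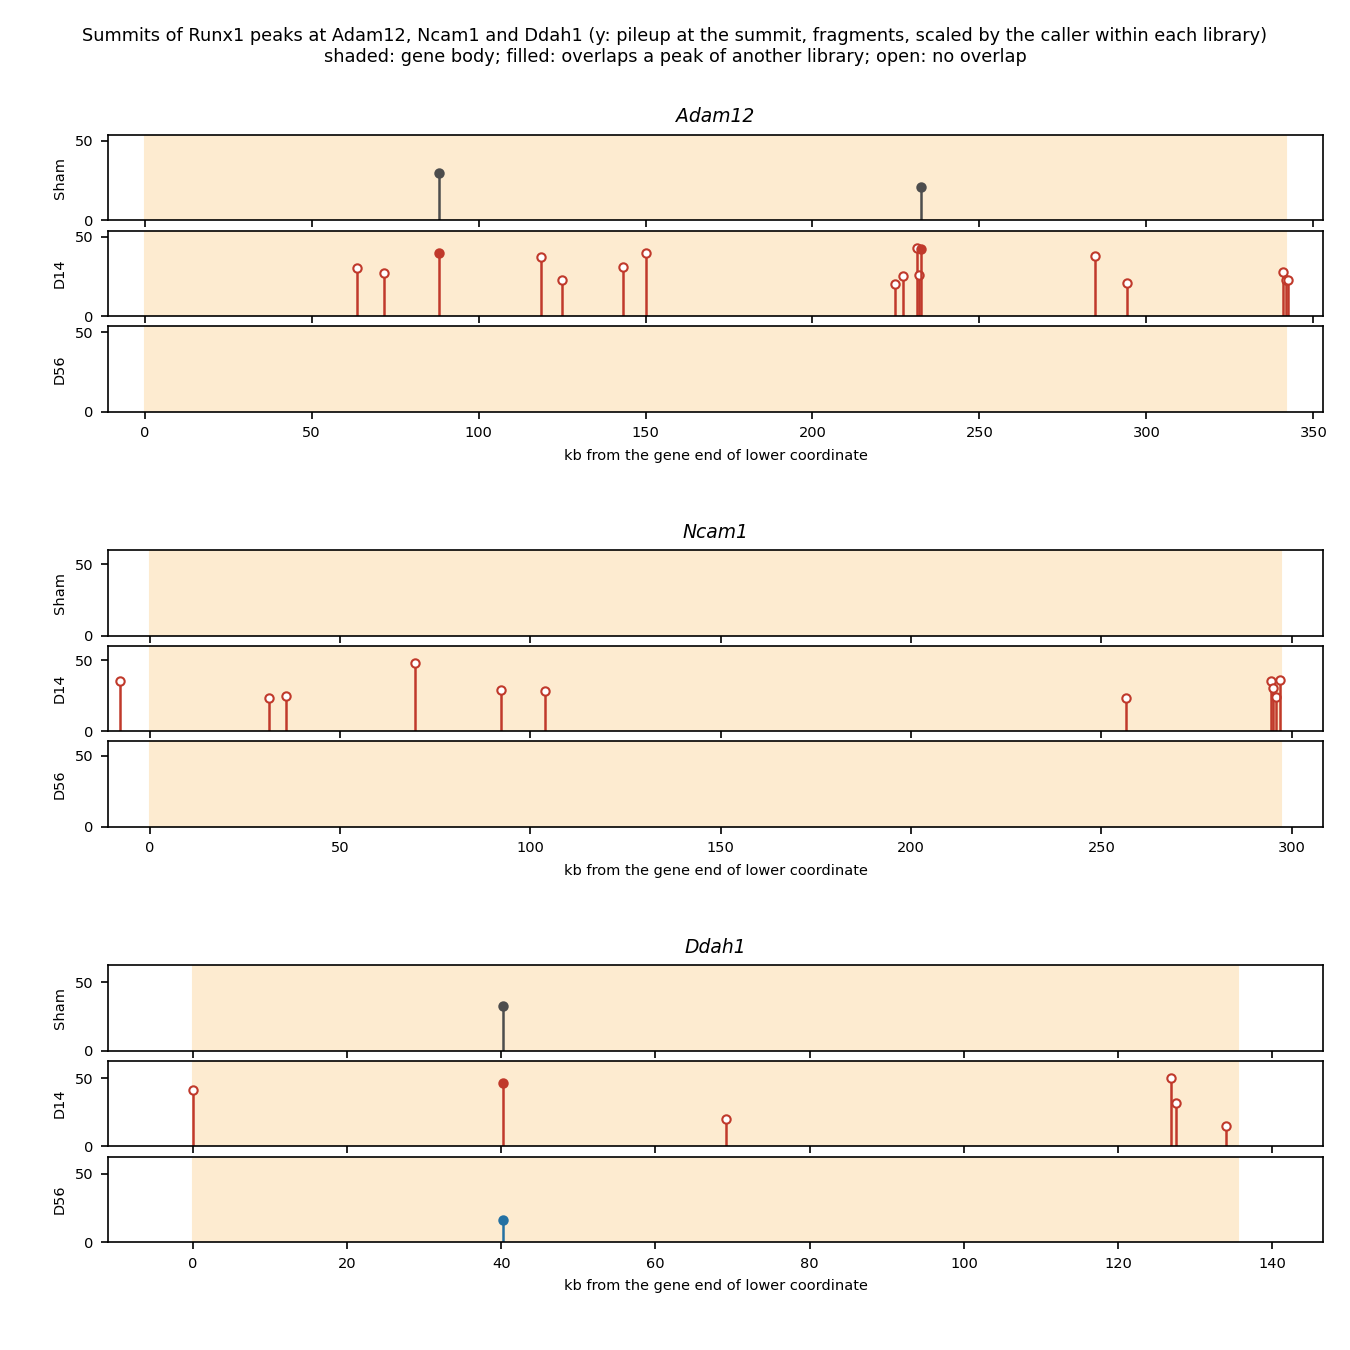
Summits of Runx1 peaks along Adam12, Ncam1 and Ddah1, with distance from the gene end of lower coordinate (x axis, kb) and pileup at the summit (y axis, fragments, scaled by the caller within each library). Open D14 points, which overlap no other library, are 15 of 17 at Adam12, 11 of 11 at Ncam1 and 5 of 6 at Ddah1.

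Scx, the tendon transcription factor scleraxis, is the shortest gene of the set (76457411 to 76459468 on chromosome 15) and lies within Bop1, a ribosome biogenesis gene. The D14 list held 5 peaks there and the other lists 0. In order of position the D14 pileups were 26, 23, 45, 16 and 26 and the folds 6.23, 5.39, 8.20, 2.98 and 2.79. The strongest, at 76461254 to 76461994, lay 2.32 kb past the Scx end (percentile 68.2), and the peak at 76457298 to 76457476 met the end of lower coordinate, 53 bp before it at the summit. The peak farthest out had its summit 9.03 kb from Scx. All 5 summits lay inside Bop1, and no other D14 summit and no sham or D56 summit did. When each peak was given only to the nearest protein-coding gene, none was left to Scx. A peak at the end of higher coordinate of Bop1, 17.6 kb from Scx, was called in all 3 libraries.

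Aspn, the small leucine-rich proteoglycan asporin, spans 49544443 to 49567565 on chromosome 13 and had no peak in any library. It lies inside the long centromere gene Cenpp, which held 4 sham, 8 D14 and 3 D56 summits, all outside the Aspn window. The nearest D14 peak was 14.0 kb from Aspn, at 49581570 to 49581708, and overlapped no sham or D56 peak. The nearest sham and D56 peaks were 55.7 and 55.8 kb away.

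Ddah1, an enzyme that breaks down asymmetric dimethylarginine, an inhibitor of nitric oxide synthesis, spans 145758692 to 145894277 on chromosome 3. Its D14 peaks numbered 6, and each other list held 1. The shared place lay 40 kb inside the gene, at 145798773 to 145799048 in sham, with pileups of 33 (sham), 46 (D14) and 16 (D56) and folds of 6.85, 5.92 and 6.56. It stood at percentile 60.0, 60.8 and 37.1 of the lists, with summits 48 to 103 bp apart. Among the D14 peaks without overlap were the promoter peak shown above (145758607 to 145759171, pileup 41, fold 6.89) and a pair within 1.05 kb near the other end (145885435 to 145886488, pileups 50 and 32). The promoter thus had a called peak at D14 alone, and the site inside the gene was called throughout.

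Overlap between libraries was then counted over the 49 D14 peaks. Adam12 held 17 of them and Ncam1 11, several in groups. The intervals treat peaks as independent, which peaks of 1 gene need not be, so they may be too narrow. Of the 49 peaks, 43 met no sham peak (87.8%, 75.8 to 94.3), against 58.9% of all D14 peaks. Without Adam12 and Ncam1, an alternative chosen after the values were seen, 17 of 21 met no sham peak (81.0%, 60.0 to 92.3). No D56 peak was met by 47 of the 49 (95.9%, 86.3 to 98.9), against 74.4% of all D14 peaks. Without Adam12 and Ncam1 it was 19 of 21 (90.5%, 71.1 to 97.3), a range that includes 74.4%. All 6 sham peaks met a D14 peak, against 91.7% of all sham peaks, and both D56 peaks did, against 99.4%. Of the 43 that met no sham peak, 0 met a D56 peak, which allows a share of up to 6.98% (3 counts), against 1.45% of all such peaks. D14 peaks that met D56 were thus the 2 that also met sham, at Sfrp1 and Ddah1.

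These genes' D14 peaks were weaker than the list as a whole, and weak D14 peaks met sham less often everywhere. Their median pileup was 28 and median fold 4.95, beside 35 and 5.68 in the whole list, and their median percentile by −log10 p was 38. When the D14 list was divided into 5 bins of about equal size by −log10 p, 88.7%, 84.1%, 72.8%, 44.1% and 4.86% of all its peaks had no sham partner, from the weakest bin to the strongest. At the 10 genes 9 of 9, 16 of 17, 13 of 15, 5 of 7 and 0 of 1 lacked it. The peaks were concentrated in bins in which most D14 peaks had no sham partner, and the strongest bin held a single one, the Sfrp1 peak. In every other bin the share without a sham partner was higher at the 10 genes than over all D14 peaks, on few peaks. The part of peak strength in the difference from the whole list was not tested. Against D56, 98.7%, 97.2%, 92.4%, 71.4% and 12.2% of all D14 peaks lacked an overlap, and 9 of 9, 17 of 17, 15 of 15, 6 of 7 and 0 of 1 at these genes. In sham the 6 peaks had a median pileup of 25.5 beside 36 in the list, and at D56 the 2 peaks had pileups of 16 and 20 beside a median of 23.

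**Figure D4:**
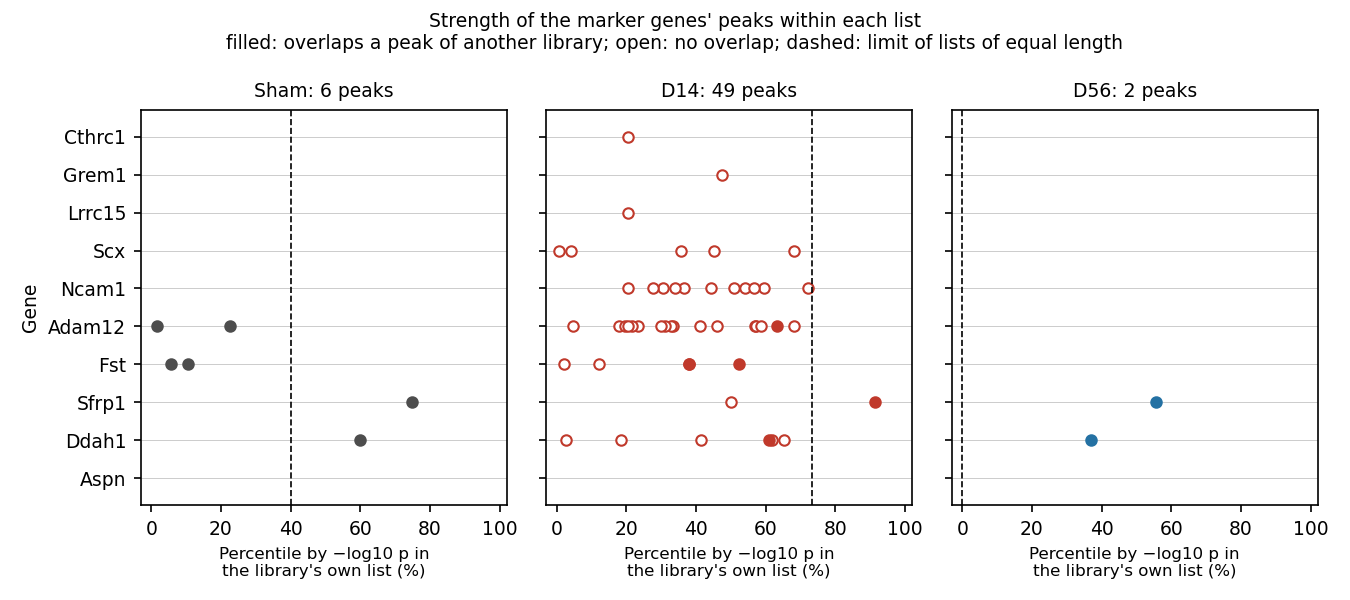
Percentile of each peak in its own library's list by −log10 p (x axis, %) for the 10 genes (y axis) in sham, D14 and D56, with the limit of the 15009 strongest peaks as a dashed line. Filled points overlap a peak of another library: at D14 only the Sfrp1 peak at 91.3 lies right of its line.

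**Figure D5:**
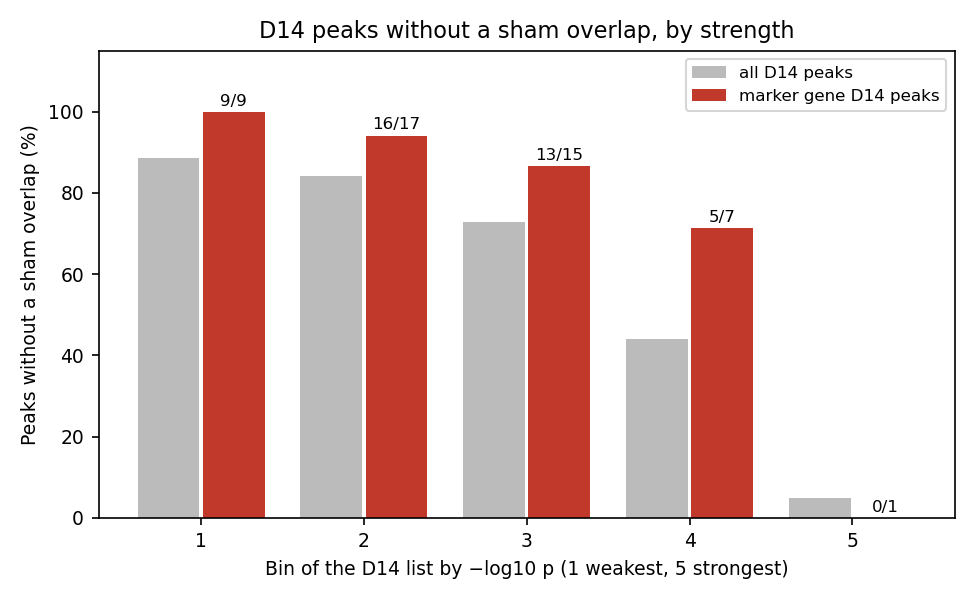
Share of D14 peaks without a sham overlap (y axis, %) in each of 5 bins of the D14 list by −log10 p (x axis, weakest to strongest), for all D14 peaks and for those at the 10 genes, with counts above the bars. Over all peaks the share falls from 88.7% to 4.86%, and the 10 genes hold 9, 17, 15, 7 and 1 peaks in the 5 bins.

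Lists of related genes were counted in the same way, and their counts stand beside 73.3% of all protein-coding genes with a peak at D14, 60.3% with a sham peak, 53.7% with a D56 peak and 12.6% with a peak at D14 alone. Most lists are short, and several counts lie near these shares. Of 15 other fibrotic markers 14 were met at D14, 10 in sham and 9 at D56, and 4 were met at D14 alone. Among their 85 peaks at D14 72.9% (62.7 to 81.2) had no sham partner, with the highest folds among these at Pmepa1, an inhibitor of TGF-beta signalling (12), and Col1a1, the main chain of type I collagen (9.88). BMP and activin antagonists, ligands and receptors, the relatives of Grem1 and Fst, were met at 15 of 15 genes (D14), 11 (sham) and 8 (D56). Among their 77 peaks at D14 66.2% had no sham partner, led by the BMP antagonist Chrd (12) and Fstl1 (11.8). Wnt antagonists and partners, the relatives of Sfrp1, had peaks at 10, 6 and 3 of 12 genes (D14, sham, D56), and 37 of their 47 peaks at D14 (78.7%) had no sham partner. They were led by the Wnt receptor Ror2 (11.3) and by Sfrp2 (7.14), which had 2 D14 peaks and none elsewhere. Small leucine-rich proteoglycans, the relatives of Aspn, had them at 6, 5 and 3 of 9 genes, while 70.6% of 17 D14 peaks met no sham peak, led by Fmod (11.3) and Prelp (9.54), each with 5 (D14), 1 (sham) and 0 (D56) peaks.

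Adam8 (12.2) and Adam17 (7.09) led the ADAM metalloproteases, which had peaks at 7, 6 and 5 of 7 genes (D14, sham, D56) and 55.6% of 36 D14 peaks without a sham partner. Tendon and skeletal transcription factors, listed with the tendon membrane protein Tnmd, had them at 6, 5 and 3 of 7 genes. Tnmd had none in any library. Of the 22 D14 peaks 40.9% (23.3 to 61.3) had no sham partner, led by Mkx (9.42) and Twist1 (7.49). Nitric oxide and methylarginine genes had them at 5, 3 and 3 of 6, while 45% of 20 D14 peaks (25.8 to 65.8) had none, led by the synthases Nos2 (9.03) and Nos1 (7.75). Adhesion molecules like Ncam1, listed with the growth factor receptor Fgfr1, had them at 5, 4 and 3 of 6 genes. Of the 32 D14 peaks 71.9% had no sham partner, led by Nrcam (14.5) and Cadm1 (11.2). Nrcam had 12 (D14), 2 (sham) and 0 (D56) peaks, and Fgfr1 had 9, 4 and 3. Markers of other fibroblast states were counted last. Alveolar fibroblast markers had peaks at 13, 13 and 10 of 13 genes (D14, sham, D56), 0 of them at D14 alone, and 60.8% of 79 D14 peaks (49.7 to 70.8) had no sham partner, led by Limch1 (10.7) and Npnt (10.1). Adventitial markers had peaks at 11, 10 and 5 of 12, 1 at D14 alone, and 58.8% of 51 D14 peaks (45.2 to 71.2) lacked it, led by Cd34 (9.98) and Serpinf1 (9.0). Over all D14 peaks the share was 58.9%. In lists of equal length, alveolar markers had a peak at 8, 6 and 10 of 13 genes, adventitial markers at 5, 7 and 5 of 12 and the other fibrotic markers at 8, 7 and 9 of 15 (D14, sham, D56). No test between the lists was made, and the peaks were not matched for strength.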

How the data were processed

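The deposited files are 3 peak lists, 1 per Runx1 ChIP library. Per the file headers, MACS 2.0.10.20120913 called peaks in each library against its own input at a q-value cutoff of 0.01, after scaling the larger of ChIP and input down to the other. BWA, SAMtools and mm10 are named in the submitters' processing notes, and no alignment settings are stated. Each deposited list gives position, summit, pileup (a signal height), fold enrichment (a ratio to local background), −log10 p and −log10 q-value, made by the authors for each library apart. Peaks off chromosomes 1 to 19, X and Y (7 sham, 15 D14) were left out.

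Groups came from sample titles. Overlap meant 1 bp or more. Positions, promoters and names came from RefSeq tables (GRCm38.p6). Analyses used Python 3.11.15, pandas 2.3.3 and scipy 1.17.1, and the interval steps were tested on simulated data. Named genes were the 10 markers, their neighbours, the 2 genes of each related list with the highest D14 fold without a sham overlap, and the 5 genes most like Ncam1. The genes, lists and rules were chosen with earlier results of these data known. Length classes, 1 kb gene ends, strength bins, groups of peaks under 2 kb apart and motifs were added during the work. Alternatives were the gene body alone, 50 kb windows, nearest gene, −log10 q of 5 or more, equal list length, reciprocal overlap of 50% and summits within 200 bp. A fold of 5 or more and leaving out Adam12 and Ncam1 were added after the values were seen.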

Additional observations from a re-analysis of the deposited data

How the results depend on the processing

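Windows of 50 kb on either side gave peaks at 8 genes in sham and 6 at D56, with 16 sham, 74 D14 and 8 D56 peaks. In lists of equal length 2 genes had a peak in sham and 1 at D14, with 2 sham peaks and 1 D14 peak. That D14 peak met sham and D56, so the shares of D14 peaks without a sham and without a D56 overlap were 0% of 1 peak, beside 25.2% and 23.1% of all D14 peaks in those lists, and 50% of the 2 sham peaks met D14. A fold of 5 or more, chosen after seeing the data, left sham peaks at 2 genes, beside 48.1% of all protein-coding genes. All other alternatives kept these counts within 1.5 times, or the shares within the interval, of the values reported. The number of D14 peaks that lacked a sham partner and met a D56 peak stayed at 0 under the alternatives in which such peaks existed, which leaves out equal list length. Of the 30 peak numbers by gene and library, 4 moved by more than 1.5 times with the gene body alone, 17 with 50 kb, 1 by nearest gene, 3 with the stricter q-value and 11 at equal length. No paired analysis was possible because each condition has 1 library and no test was made. No library could be left out for the same reason. The D56 input, at 19949187 tags, was the smallest of the 3, and its part in the D56 counts was not tested.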

Other observations

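Over all RefSeq promoters, the 2 forms of the RUNX core differed in where they occurred. The form TGCGGT was found in the 250 bases before the start in 8.24% of the 13213 promoters met by a D14 peak and in 2.98% of the 19638 others. The other form, TGTGGT, was found in 9.80% and 16.9%, and the AP-1 motif of the report in 4.52% and 8.25%. These shares are descriptions, base composition was not matched, and no test was made.

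Peak numbers at the neighbouring proteoglycan genes of Aspn were as follows: Omd had 1 D14 peak and none elsewhere, Ogn 1 in each library and Ecm2 0 in each. These 3 genes were named after their values were seen. The Omd peak is the same one given above as the D14 peak nearest to Aspn. The median over the 15880 genes up to 40 kb was 1 (sham), 1 (D14) and 0 (D56).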
